A study of Mus musculus with 8 samples.

Results

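Osteoclast genes are described here as a set of 8 transcripts in whole bone marrow (BM) of mice with acute myeloid leukemia (AML): Ctsk, Acp5, Spp1, Tcirg1, Nfatc1, Tnfrsf11a, Atp6v0d2 and Ocstamp. The set was named as osteoclast genes that fall with loss of Gab2, so its members were selected on the measured difference between the knockout and the wild-type mice, which is given below without a test. All 8 are present among the 13305 genes of the deposited table of read counts. The data go against part of that name, since Tcirg1 and Nfatc1 were not lower in the knockout mice, and the 8 genes are therefore treated as a list of genes and not as a cell type.

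BM of 8 mice was sequenced, with 1 library per mouse. All mice were on the C57BL/6N strain and carried Mx1-Cre, 1 lost allele of Dnmt3a (Dnmt3a+/-) and Flt3ITD on both alleles (Flt3ITD/ITD). They differed in Gab2, with 3 mice Gab2+/+ (AML WT), 2 mice Gab2+/- (AML HET) and 3 mice Gab2-/- (AML KO). No healthy mice are among the 8, and the age of the sequenced mice is not given in the sources used here. Cre under the Mx1 promoter is active in blood-forming cells, and its activity in bone cells and stroma was not tested here. The Flt3-ITD knock-in allele is constitutive. The Gab2 knockout allele, in which a neomycin cassette replaces part of the exons, is likewise carried by every cell of the mouse, bone cells and stroma included. Gab2 itself was at 61.6 to 93.9 CPM in AML WT, 50.8 to 55.8 in AML HET and 35.0 to 47.2 in AML KO BM, a count over the whole gene that does not show which exons the reads lie on. CPM are counts scaled to the size of the library, as given by the TMM method. The libraries held 28009258 to 39266815 counts.

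Osteoclasts are multinucleated cells that resorb bone and form by fusion of precursors of the monocyte lineage. Precursors need M-CSF, which acts through Csf1r, and RANKL, which acts through its receptor RANK (the product of Tnfrsf11a) and induces the transcription factor NFATc1. Gab2 is known as an adaptor that is recruited to RANK, and mice without Gab2 are known to form fewer osteoclasts. The mature cell seals off a pit, pumps protons into it with a vacuolar ATPase and digests the matrix with cathepsin K. The 8 genes cover these steps, with Tnfrsf11a as the receptor, Nfatc1 as the regulator, Ocstamp and Atp6v0d2 acting in fusion, Tcirg1 and Atp6v0d2 as proton pump subunits, and Ctsk, Acp5 and Spp1 as products of the resorbing cell. Most are not limited to it, and Spp1 in particular is also made by osteoblasts and macrophages.

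Ctsk, Acp5 and Spp1 were the members with the lowest levels in AML KO relative to AML WT. The sequence before a RefSeq start of each is shown because they were low together. The windows are the 250 bases before a RefSeq start on GRCm38.p6, printed 5′ to 3′ in the direction of the gene, for Ctsk from chr3:95498960-95499209 on the plus strand, for Spp1 from chr5:104434861-104435110 on the plus strand and for Acp5 from chr9:22135747-22135996 on the minus strand. Capitals mark matches to 4 motifs searched on both strands, which do not overlap each other here: the core of PU.1, a factor of the myeloid lineage (GAGGAAG or GAGGAAC), AP-1 (TGACTCA or TGAGTCA), NFAT (GGAAAA) and the E-box bound by the MITF and TFE family (TCACGTG or TCATGTG).
Ctsk: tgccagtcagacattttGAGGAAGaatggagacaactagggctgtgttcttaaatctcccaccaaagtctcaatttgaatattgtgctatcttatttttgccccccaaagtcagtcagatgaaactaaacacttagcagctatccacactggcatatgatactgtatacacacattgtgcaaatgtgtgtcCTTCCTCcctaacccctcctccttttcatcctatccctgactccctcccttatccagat
Spp1: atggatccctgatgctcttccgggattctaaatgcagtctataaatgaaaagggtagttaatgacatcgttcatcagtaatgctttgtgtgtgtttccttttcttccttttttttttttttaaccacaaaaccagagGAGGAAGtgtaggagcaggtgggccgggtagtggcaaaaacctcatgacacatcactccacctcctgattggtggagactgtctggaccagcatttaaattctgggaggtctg
Acp5: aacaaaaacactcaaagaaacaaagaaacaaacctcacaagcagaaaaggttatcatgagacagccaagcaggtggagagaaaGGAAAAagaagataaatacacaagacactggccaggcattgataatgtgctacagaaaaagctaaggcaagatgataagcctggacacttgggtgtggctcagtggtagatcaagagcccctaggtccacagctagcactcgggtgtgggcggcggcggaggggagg

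Ctsk held the PU.1 letters at −233 to −227 and, on the other strand, at −59 to −53 from the start. The window of Spp1 held them at −113 to −107, and that of Acp5 held the NFAT letters at −167 to −162. Such matches are common, with PU.1 letters in 14.3% and NFAT letters in 20.4% of all 32851 promoter windows of the same length, AP-1 letters in 4.46% and the E-box in 6.28%. RefSeq windows of 5 of the 8 genes were used, and Acp5, Spp1 and Tcirg1 have more than 1 start. The windows of the other starts of Acp5, Spp1 and Tcirg1 held 1 match or none, and that of Tnfrsf11a held none. Atp6v0d2 and Ocstamp had no entry, and Nfatc1, on chromosome 18, was left out. The first bases after the start of each printed window were not found in a GENCODE transcript of its gene. Those after start 2 of Spp1 and start 3 of Acp5, numbered along the gene, were found. By position, each printed window lies just upstream of the outermost GENCODE start of its gene. That start is 95499256 for Ctsk, 104435118 for Spp1 and, on the minus strand, 22135711 for Acp5. Which start the counted transcripts used was not tested. A match describes letters and says nothing of binding.

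Ctsk (ENSMUSG00000028111), on chromosome 3 from 95499256 to 95509362, encodes cathepsin K, the collagen-cleaving protease of the osteoclast. It was at 72.6, 64.0 and 70.5 CPM in the 3 AML WT mice, at 23.8 and 19.0 CPM in the AML HET mice and at 10.4, 24.5 and 8.69 CPM in the AML KO mice. Every AML HET and AML KO mouse lay below every AML WT mouse, while AML KO replicate 2 lay above both AML HET mice. The AML WT mean was 69.1 ± 4.48 CPM (SD, n = 3), the AML HET mean 21.4 ± 3.36 (SD, n = 2) and the AML KO mean 14.5 ± 8.67 (SD, n = 3). On the log2 scale AML KO was −2.25 (standard error 0.34) from AML WT, the largest difference of the 8 genes.

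Acp5 (ENSMUSG00000001348) encodes the tartrate-resistant acid phosphatase by which osteoclasts are stained, and lies on chromosome 9 from 22126727 to 22135711. Its levels were 68.8, 71.1 and 81.1 CPM in AML WT, 27.6 and 27.1 CPM in AML HET and 19.9, 33.6 and 16.4 CPM in AML KO mice. The AML HET mice were again far below the AML WT mice and inside the range of the AML KO mice. AML WT mice had a mean of 73.7 ± 6.55 CPM (SD, n = 3), AML HET mice one of 27.3 ± 0.334 (SD, n = 2) and AML KO mice one of 23.3 ± 9.11 (SD, n = 3). The log2 difference of AML KO from AML WT was −1.66 (standard error 0.24). An exon of 6530413G14Rik, a gene on the opposite strand, overlaps Acp5 and has no row of its own, and the strand setting of the counting is not given in the sources used here, so reads of both cannot be told apart.

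Spp1 (ENSMUSG00000029304), on chromosome 5 from 104435118 to 104441050, encodes osteopontin, a matrix protein to which osteoclasts attach. Levels were 87.6, 89.7 and 88.3 CPM in AML WT, 59.1 and 50.0 CPM in AML HET and 34.0, 32.7 and 33.5 CPM in AML KO mice. The 3 groups did not overlap, and Spp1 was the only one of the 8 genes with every AML KO mouse below both AML HET mice, which 11.0% of all genes showed. Mice of a group were close together, with 88.5 ± 1.05 CPM (SD, n = 3) for AML WT, 54.5 ± 6.47 (SD, n = 2) for AML HET and 33.4 ± 0.666 (SD, n = 3) for AML KO. The log2 difference of AML KO from AML WT was −1.41 (standard error 0.11). Spp1 shares exonic bases with Gm42793 on the same strand, which has no row in the table.

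Tnfrsf11a (ENSMUSG00000026321), on chromosome 1 from 105780718 to 105847981, encodes RANK. It was counted at 9.98, 10.4 and 8.85 CPM in AML WT, 8.38 and 7.30 CPM in AML HET and 3.99, 7.50 and 5.39 CPM in AML KO mice. Both AML HET mice lay just below the AML WT mice, and AML KO replicate 2 lay between the AML HET mice. AML KO was −0.80 (standard error 0.24) from AML WT on the log2 scale.

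Nfatc1 (ENSMUSG00000033016), on chromosome 18 from 80606205 to 80713071, encodes the transcription factor that switches on most other osteoclast genes. Its levels of 90.2, 83.1 and 78.5 CPM in AML WT, 80.1 and 81.2 CPM in AML HET and 70.1, 91.6 and 75.3 CPM in AML KO mice overlapped fully. The log2 difference of AML KO from AML WT was −0.09 (standard error 0.13). NFATc1 is also made in lymphocytes and other cells, and whole BM does not show which cells held these reads.

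Atp6v0d2 (ENSMUSG00000028238), on chromosome 4 from 19876841 to 19922605, encodes the d2 subunit of the proton pump, which also takes part in fusion. It was at 4.33, 3.10 and 4.01 CPM in AML WT, 1.93 and 1.34 CPM in AML HET and 1.14, 2.62 and 1.68 CPM in AML KO mice, from 35 to 176 counts per mouse. The AML HET mice lay within the range of the AML KO mice, and both groups lay below AML WT. The log2 difference of AML KO from AML WT was −1.07 (standard error 0.34).

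Ocstamp (ENSMUSG00000027670), on chromosome 2 from 165393760 to 165400405, encodes a membrane protein needed for fusion and was the least counted member, with 7 to 43 counts per mouse. Levels were 0.74, 1.20 and 1.32 CPM in AML WT, 0.35 and 0.41 CPM in AML HET and 0.43, 0.91 and 0.21 CPM in AML KO mice. AML KO replicate 2 lay above AML WT replicate 1, so these groups overlapped, while both AML HET mice lay below all AML WT mice. The log2 difference of AML KO from AML WT was −1.09 (standard error 0.51). Spread between mice and counting error were not separated for this wide error.

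Tcirg1 (ENSMUSG00000001750), on chromosome 19 from 3896050 to 3907133, encodes the a3 subunit of the proton pump, without which mice have osteopetrosis. It was at 228.4, 316.8 and 393.0 CPM in AML WT, 375.7 and 385.2 CPM in AML HET and 393.7, 214.6 and 331.3 CPM in AML KO mice. The spread within AML WT and within AML KO was wider than any difference between groups, and the log2 difference of AML KO from AML WT was 0.00 (standard error 0.24). The a3 subunit is also present in lysosomes of other myeloid cells.

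**Figure D1:**
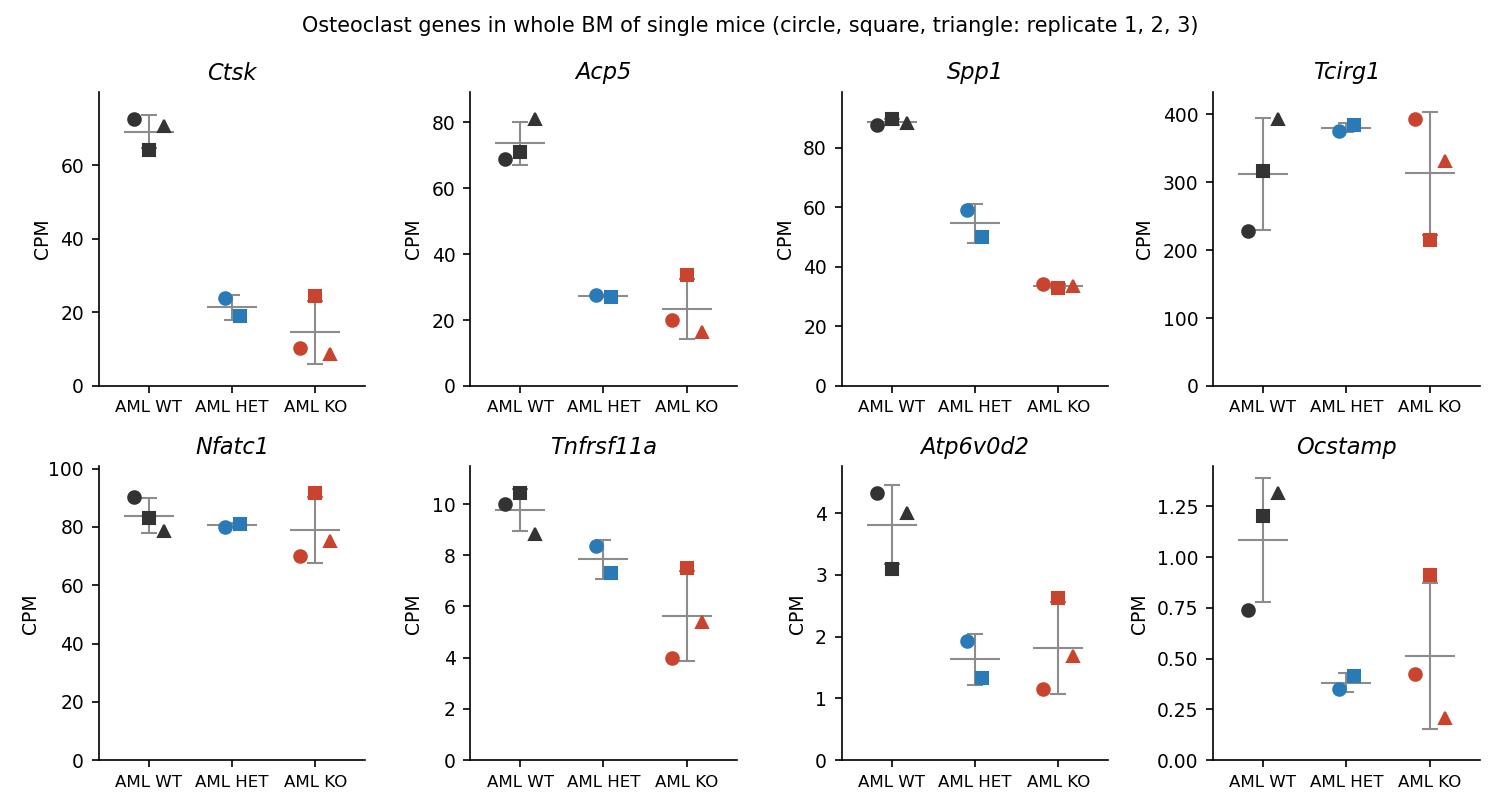
Level of each of the 8 osteoclast genes in CPM (y axis, linear, from 0) in single mice by Gab2 genotype (x axis), with horizontal lines for the group mean and bars for 1 SD (n = 3, 2 and 3 mice from left to right). Ctsk drops from 69.1 to 21.4 CPM with 1 allele lost and Spp1 steps down from 88.5 to 54.5 to 33.4 CPM, while Tcirg1 and Nfatc1 show overlapping groups.

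Per length of transcript, in TPM (counts divided by the summed exon length of each gene and scaled to the same total in every library), the members in AML WT BM ranked as Tcirg1 at 202, Spp1 at 162, Ctsk at 138, Acp5 at 109, Nfatc1 at 34.1, Tnfrsf11a at 4.94, Atp6v0d2 at 4.26 and Ocstamp at 0.881. Neighbours in this order overlapped over the AML WT mice for Tcirg1 (164.5 to 238.9 TPM) and Spp1 (149.9 to 176.2), for Spp1 and Ctsk (124.9 to 159.3) and for Tnfrsf11a (4.14 to 5.53) and Atp6v0d2 (3.36 to 5.28). Acp5 (103.3 to 112.4 TPM) and Nfatc1 (29.4 to 40.0) stood apart from their neighbours. In AML KO BM the order was Tcirg1 at 170, Spp1 at 51.2, Acp5 at 29.2, Nfatc1 at 26.9, Ctsk at 24.6, Tnfrsf11a at 2.41, Atp6v0d2 at 1.72 and Ocstamp at 0.358. Ctsk was above Nfatc1 in every AML WT mouse, while in AML KO Acp5 (21.5 to 44.0 TPM), Nfatc1 (21.2 to 32.6) and Ctsk (15.4 to 43.0) overlapped.

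In all, 5 of the 8 genes had every AML KO mouse below every AML WT mouse, a pattern seen in 9.83% of all genes. Since this contrast chose the genes, nothing is read from that share. The median log2 difference over the 8 genes was −1.08, against −0.02 over all genes, and for the same reason nothing is read from it. AML KO replicate 2 was the highest of the AML KO mice in 6 of the 8 genes and the lowest in the other two, Spp1 and Tcirg1. Leaving out that mouse moved the log2 difference of Ctsk to −2.86, of Acp5 to −2.03, of Atp6v0d2 to −1.43 and of Ocstamp to −1.78, but left Spp1 between −1.42 and −1.38 under every alternative.

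How far loss of 1 Gab2 allele had already lowered these genes was read from AML HET. Both AML HET mice lay below all 3 AML WT mice in 6 of the 8 genes (Ctsk, Acp5, Spp1, Tnfrsf11a, Atp6v0d2 and Ocstamp), which 8.61% of all genes showed. The log2 differences of AML HET from AML WT were −1.69 (standard error 0.39) for Ctsk, −1.43 (0.27) for Acp5, −0.70 (0.13) for Spp1, −1.22 (0.39) for Atp6v0d2, −1.49 (0.60) for Ocstamp and −0.32 (0.27) for Tnfrsf11a. Nfatc1 was at −0.06 (0.15) and Tcirg1 at 0.28 (0.27), and the 95% intervals of Nfatc1, Tcirg1 and Tnfrsf11a included 0. The median was −0.96, against −0.01 over all genes.

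This comparison shares the AML WT mice with the one that chose the genes, so its counts, median and p-values are not independent of that choice. In the quasi-likelihood test of edgeR, with p adjusted over all genes by Benjamini-Hochberg, 0 of the 8 passed, with adjusted p = 0.430 for Spp1, 0.449 for Acp5 and 0.513 for Ctsk. The same test called 0.0225% of all genes. At an unadjusted p under 0.05, 5 of the 8 were lower, against 0.819% of all genes. The call depended on the tool, since DESeq2 gave adjusted p = 2.0e-04 for Spp1, 3.1e-04 for Acp5 and 0.00293 for Ctsk. It also depended on AML KO replicate 2, which enters through the shared estimate of the spread, as without that mouse edgeR gave 0.0170 for Ctsk and 0.0247 for Acp5.

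Whether AML HET lay nearer to AML WT or to AML KO was tested as its log2 distance from the midpoint of these groups. For the genes lower in AML KO, negative values lie on the AML KO side. The distance grows with the difference between AML KO and AML WT, so its size is read within a gene and not between genes. Spp1 lay at 0.00 (95% interval −0.25 to 0.25) and Tnfrsf11a at 0.08 (−0.45 to 0.61). Acp5 lay at −0.60 (−1.14 to −0.06), the only one of the 8 whose interval left out 0, and its adjusted p was 1.00 in edgeR's test. Ctsk lay at −0.56 (−1.33 to 0.20), Atp6v0d2 at −0.69 (−1.48 to 0.11) and Ocstamp at −0.94 (−2.20 to 0.32), so that values from the midpoint to the AML KO level are within each interval. Of the 8 genes, 0 passed the adjusted threshold against the midpoint, 1 had an unadjusted p under 0.05 and DESeq2 also called 0, while edgeR called 0.00752% of all genes, and 1.13% at the unadjusted p.

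Expressed as a share of the log2 difference between AML KO and AML WT, and given only for the 6 genes where that difference was beyond −0.5, AML HET had covered 75.1% for Ctsk, 86.1% for Acp5, 49.7% for Spp1, 39.7% for Tnfrsf11a, 113.9% for Atp6v0d2 and 136.1% for Ocstamp. Over all alternatives the share stayed between 41.5% and 58.7% for Spp1, 58.9% and 85.1% for Ctsk, 70.4% and 98.0% for Acp5, and 27.6% and 53.5% for Tnfrsf11a. It ran for Atp6v0d2 from 85.3% to 147.9% and for Ocstamp from 83.2%, without AML KO replicate 2, to 212.4%, with AML KO replicate 3 left out. The lowest share of Ctsk, Acp5 and Atp6v0d2 also came without AML KO replicate 2.

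From AML HET to AML KO, Spp1 was lower by a further −0.71 on the log2 scale (standard error 0.12, adjusted p = 0.261 in edgeR's test and 1.6e-04 in DESeq2), which shares the AML KO mice with the choice of the genes. The other members had −0.56 (0.37) for Ctsk, −0.48 (0.27) for Tnfrsf11a, −0.23 (0.26) for Acp5, −0.28 (0.27) for Tcirg1, −0.03 (0.15) for Nfatc1, 0.15 (0.39) for Atp6v0d2 and 0.39 (0.62) for Ocstamp. edgeR called 0 genes of the whole table here, with 5.86% at an unadjusted p under 0.05, among which Spp1 was the single member, and DESeq2 called 77 genes. The values of Atp6v0d2 and Ocstamp turned to −0.21 and −0.30 without AML KO replicate 2.

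**Figure D2:**
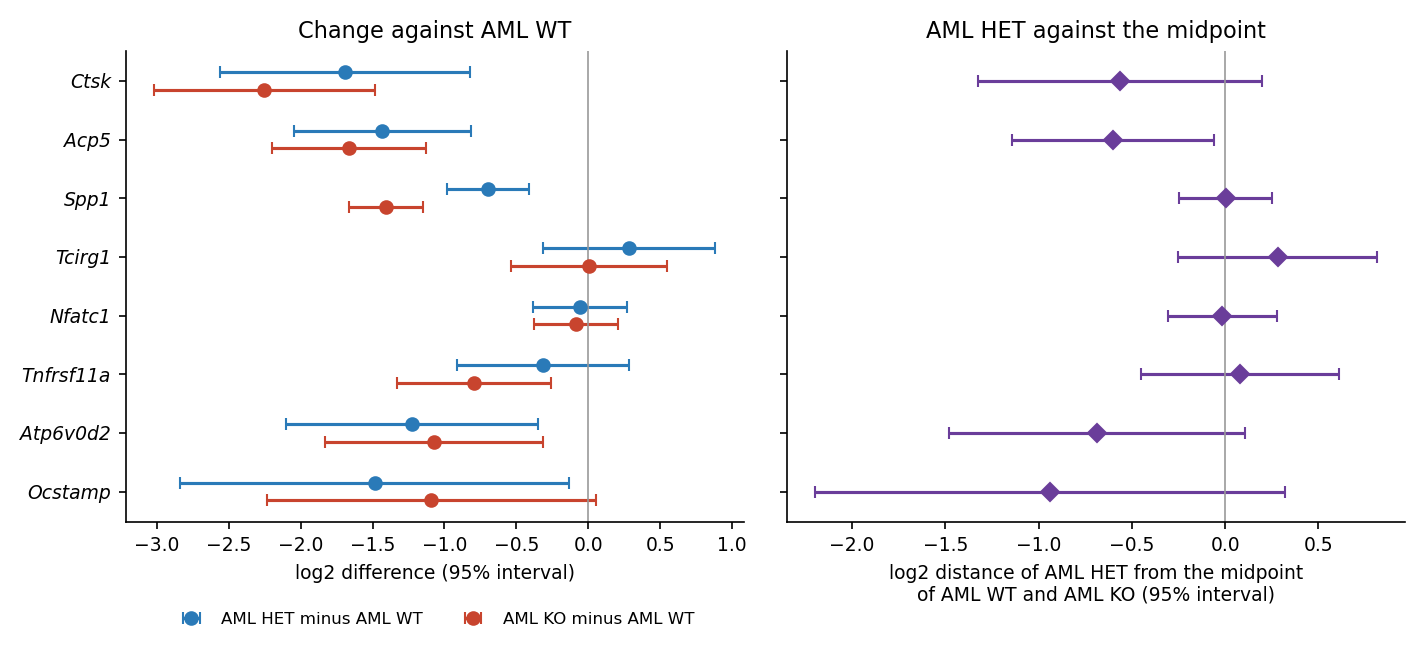
Left, log2 differences of AML HET (blue) and AML KO (red) from AML WT for the 8 genes, and right, the log2 distance of AML HET from the midpoint of AML WT and AML KO, with points for edgeR estimates and bars for 95% intervals. The genes were chosen by the AML KO difference, so its intervals describe the estimates and are no test. AML HET and AML KO lie close together for Acp5 (−1.43 and −1.66) and apart for Spp1 (−0.70 and −1.41), and only the interval of Acp5 leaves out the midpoint.

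The other genes of osteoclast formation and function were taken from 9 lists. In these, which hold 139 genes of the table in all, 2 were lower and 3 higher in AML KO than in AML WT at an adjusted p under 0.05 in edgeR's test, against 0.323% lower and 1.77% higher of all genes, or 2.09% in either direction. By sign, 80 of the 139 were lower and 59 higher, with a median log2 difference of −0.10. At an unadjusted p under 0.05, 16 were lower and 10 higher, against 7.88% and 9.77% of all genes. DESeq2 called 7 lower and 6 higher entries of the 9 lists, where a gene in more than 1 list counts in each, and also called 0 in the lists of the M-CSF axis, ITAM co-stimulation, fusion and the proton pump.

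Upstream of RANK and in its NF-kB and AP-1 branches, 17 of 23 genes were lower by sign, 0 passed, and the median was −0.14, with 1 gene in each direction at an unadjusted p under 0.05. Those were Jun, an AP-1 subunit, at −0.88 (standard error 0.22, adjusted p = 0.0906 in edgeR's test) and Nfkbia, the inhibitor of NF-kB, at 0.47 (0.16, adjusted p = 0.207). Tnfsf11, which encodes RANKL, was at 1.95 ± 0.101 CPM (SD, n = 3) in AML WT and 1.99, 2.73 and 2.83 CPM in AML KO mice, a log2 difference of 0.37 (0.29, adjusted p = 0.492). Its decoy receptor Tnfrsf11b was not analysed here, having no row.

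In the M-CSF axis, 7 of 13 genes were lower by sign and 0 passed, with a median of −0.10 and 2 lower at an unadjusted p under 0.05. Pparg, a nuclear receptor that promotes osteoclast formation, had −0.64 (0.20, adjusted p = 0.163) and its coactivator Ppargc1b −0.70 (0.29, adjusted p = 0.264) in the same edgeR test. Among 20 genes of ITAM co-stimulation and calcium signalling, the input that activates NFATc1, 14 were lower by sign, 0 passed and the median was −0.07. The calcium channel Itpr1 had −0.52 (0.16, adjusted p = 0.161) and Nfatc3 −0.51 (0.21, adjusted p = 0.259) by edgeR, both unadjusted p being under 0.05. The other NFAT gene, Nfatc2, had −0.29 (0.14, adjusted p = 0.305).

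For 12 genes listed as inhibitors the signs split 6 and 6, 0 passed, and the median was 0.02, with 2 lower and 1 higher at an unadjusted p under 0.05. Rbpj, the Notch effector that restrains osteoclast formation, had −0.59 (0.16, adjusted p = 0.112 in edgeR's test). Slc9b2, a sodium and proton exchanger that is itself strongly induced in osteoclasts, had −1.65 (0.41, adjusted p = 0.0828), from 2.23 ± 0.657 CPM (SD, n = 3) in AML WT. Of 12 fusion genes 8 were lower by sign, 0 passed and the median was −0.12, with 2 lower and 1 higher at an unadjusted p under 0.05. Cd9, a tetraspanin, had 0.41 (0.15, adjusted p = 0.230) and the chemokine Ccl9 −0.33 (0.13, adjusted p = 0.243) by edgeR. Dcstamp, the partner of Ocstamp in fusion, was not analysed here, having no row.

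Among the 16 other proton pump subunits 11 were higher by sign, 0 passed and the median was 0.03, with 1 higher at an unadjusted p under 0.05. Atp6v0d1, the ubiquitous relative of Atp6v0d2, had −0.03 (0.13, adjusted p = 0.914 in edgeR's test). The relatives of Tcirg1 were at 0.01 (0.12, adjusted p = 0.984) for Atp6v0a1 and −0.18 (0.12, adjusted p = 0.400) for Atp6v0a2. The smallest p were those of Atp6v1f at 0.51 (0.21, adjusted p = 0.262) and Atp6v1e1 at 0.26 (0.12, adjusted p = 0.294).

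In acid secretion and the ruffled border, 7 of 11 genes were lower by sign, with a median of −0.12, and 1 passed in each direction, with 4 lower and 1 higher at an unadjusted p under 0.05. Slc37a2, a sugar phosphate transporter of macrophages and osteoclasts, was at 13.7 ± 2.41 CPM (SD, n = 3) in AML WT and 6.41, 7.61 and 6.19 CPM in AML KO mice. It fell by 1.02 on the log2 scale (standard error 0.20, adjusted p = 0.0344 in edgeR's test). Car2, a carbonic anhydrase that supplies protons in osteoclasts and is also a red cell enzyme, was at 17.8 ± 1.19 CPM (SD, n = 3) in AML WT and 165, 62.6 and 77.6 CPM in AML KO mice, and rose by 2.52 (0.42, adjusted p = 0.0163).

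In matrix resorption and the sealing zone, the signs of 20 genes split 10 and 10, the median was −0.08, and 1 was called lower and 2 higher. Anpep, an aminopeptidase of myeloid cells, fell by 1.28 (standard error 0.22, adjusted p = 0.0213 in edgeR's test) from 26.3 ± 4.95 CPM (SD, n = 3) in AML WT. Src, a kinase needed for the ruffled border, rose by 1.24 (0.23, adjusted p = 0.0245) from 2.31 ± 0.367 CPM, and Mmp9, a gelatinase that neutrophils store in granules, by 1.12 (0.24, adjusted p = 0.0460) from 60.4 ± 19.8 CPM. All 13 other cathepsins were in the table, with 7 lower by sign, a median of −0.14 and 0 called, and with 3 lower and 2 higher at an unadjusted p under 0.05. Of these, Ctse had 1.16 (0.28, adjusted p = 0.0792) and Ctsf 1.00 (0.28, adjusted p = 0.127). Ctsk, at −2.25, was chosen by this difference, so no contrast with the other cathepsins is read from it. Ctsl had −0.14 (0.16), Ctss −0.33 (0.15), Ctsb −0.20 (0.17) and Ctsd 0.03 (0.17), with adjusted p of 0.639, 0.293, 0.538 and 0.939 by edgeR. The 3 lower ones at an unadjusted p under 0.05, named after their values were seen, were Ctsc at −0.65 (0.19, adjusted p = 0.146), Ctsh at −0.32 (0.14, adjusted p = 0.273) and Ctsa at −0.32 (0.14, adjusted p = 0.274).

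The 5 called list genes depended on single mice. For Slc37a2 the adjusted p of edgeR exceeded 0.05 in 7 of 8 fits that left out 1 mouse each (at most 0.148 without AML KO replicate 3, and under 0.05 only without AML KO replicate 2), and for Mmp9 in 7 (at most 0.159 without AML WT replicate 2, and under 0.05 only without AML WT replicate 3). For Anpep and for Src it was above 0.05 without AML WT replicates 2 and 3 and AML KO replicates 1 and 3, at most 0.104 (Anpep, without AML KO replicate 3) and 0.123 (Src, without AML WT replicate 2). Car2 lost the threshold without AML WT replicate 1 (0.0803) and replicate 2 (0.0860).

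**Figure D3:**
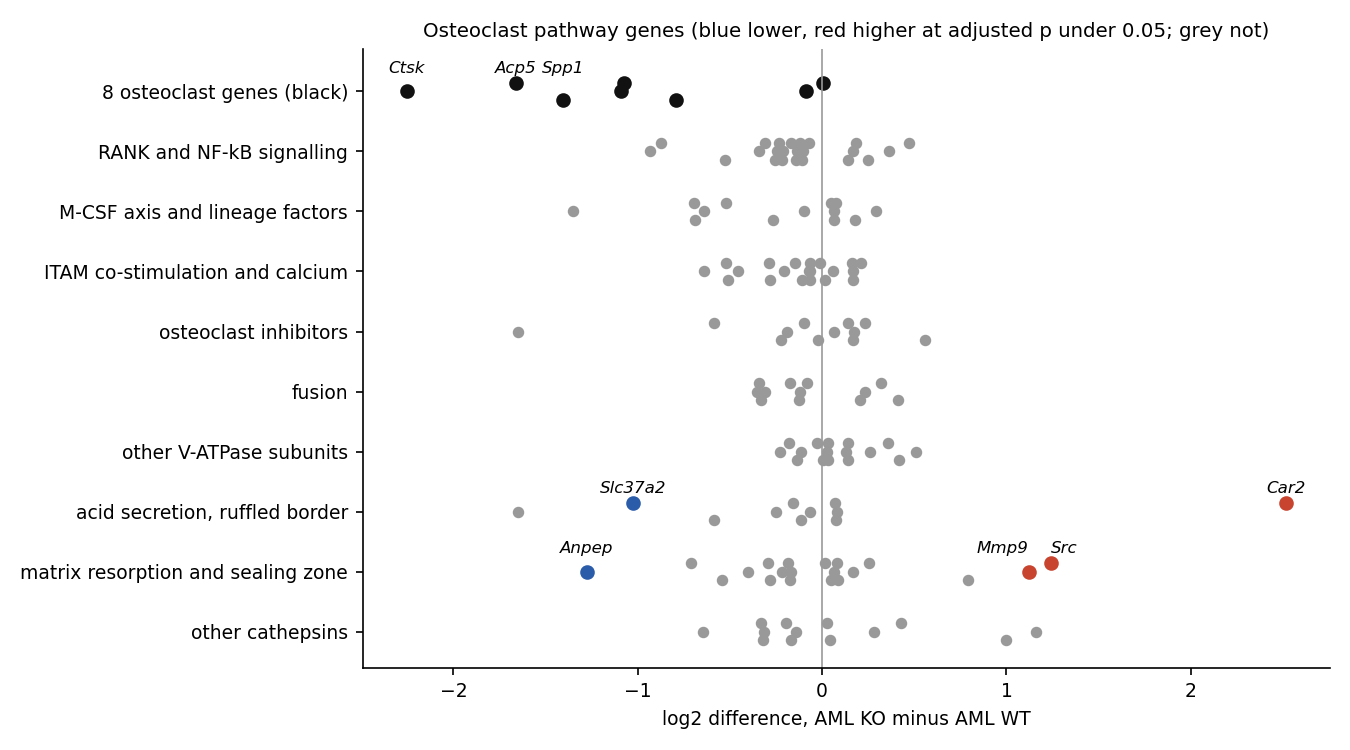
Log2 difference between AML KO and AML WT (x axis) of the 8 osteoclast genes (black) and of the genes of 9 osteoclast pathway lists, 1 point per gene, with genes of adjusted p under 0.05 in blue (lower) and red (higher). Ctsk at −2.25 lies further left than any list gene, but the 8 genes were chosen by this difference, so nothing is read from that. Most list genes lie near 0, with a median of −0.10 over the 139.

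Whole BM holds many cell types, and in bulk samples fewer cells of a type and less RNA per cell cannot be told apart. As a check of the label, 4 defining osteoclast markers, Dcstamp, Calcr, Oscar and Siglec15, have no row in the table and were not analysed here. The 3 osteoclast markers in the table that are not members, Car2, Mmp9 and Itgb3, which erythroid, neutrophil and megakaryocyte cells also express, summed to 125 to 164 CPM in AML WT, 170 to 238 in AML HET and 291 to 426 in AML KO BM. They went in the opposite direction to Ctsk and Acp5, all 3 being higher in AML KO by sign and 2 by the adjusted p, against 1.77% of all genes.

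Summed markers of other cells also differed between the groups. For the counts of markers below, edgeR called 0.323% of all genes lower and 1.77% higher in AML KO than in AML WT. At an unadjusted p under 0.05 the shares were 7.88% lower and 9.77% higher. The 12 markers of osteoblasts and stroma summed to 733 to 1268 CPM in AML WT, 636 to 722 in AML HET and 423 to 685 in AML KO BM, so that the AML HET and AML KO mice all lay below the AML WT mice. Of the 12, 9 were lower in AML KO by sign, 0 passed, and the median log2 difference was −0.20. The 4 at an unadjusted p under 0.05 were the bone matrix genes Dmp1 at −1.22, Col1a2 at −0.95, Col1a1 at −0.90 and Bglap2 at −0.89. Of the rest, Bglap was at −0.748, Runx2 at −0.204, Sp7 at −0.19, Ibsp at −0.019 and Alpl at −0.018. Cxcl12 at 0.655, Tnfsf11 at 0.365 and Lepr at 0.278 were higher by sign. The 13 macrophage markers summed to 541 to 646 CPM in AML WT, 456 to 472 in AML HET and 333 to 530 in AML KO BM, with 2 called lower (Mrc1 and Axl) and 3 called higher (Slc40a1, Vcam1 and Cd5l) by edgeR. By sign, however, 6 of these 13 were lower and 7 higher, with a median log2 difference of 0.21. The AML WT sums of both lists lay above those of all other mice. Most of the osteoblast and stroma sum came from Col1a1 and Col1a2. Col1a1 had means of 450, 306 and 241 CPM in AML WT, AML HET and AML KO, and Col1a2 of 346, 221 and 179. The separation of that sum therefore describes mainly these genes and not the whole list.

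The 10 monocyte markers, all lower by sign with 0 called, 3 at an unadjusted p under 0.05 and a median log2 difference of −0.30, summed to 6823 to 9535 CPM in AML WT, 6643 to 6737 in AML HET and 5006 to 7801 in AML KO BM. Among them, Csf1r, the M-CSF receptor, had −0.26 (0.18, adjusted p = 0.434 in edgeR's test). The 8 dendritic cell markers summed to 1016 to 2323, 1026 to 1368 and 698 to 1025 CPM, so AML KO touched the range of AML WT. All 8 were lower in AML KO by sign, 6 of them at an unadjusted p under 0.05 (7.88% of all genes), with a median log2 difference of −0.96. EdgeR called 1 lower (Itgax at −1.10, adjusted p = 0.0457), against 0.323% of all genes. The sums of 12 neutrophil markers (1363 to 4794, 5505 to 6196 and 10627 to 17335 CPM), 11 erythroid markers (335 to 465, 723 to 2271 and 1580 to 5519) and 9 megakaryocyte markers (91.6 to 130.1, 129.3 to 166.7 and 318 to 425) were highest in AML KO BM, with 7, 9 and 8 genes called higher, against 1.77% of all genes. No marker with a row was at 0 in any mouse, but genes with few counts have no row. Phex of the osteoblast and stroma list, Marco of the macrophage list and Ahsp of the erythroid list had none and were not analysed here. The part of each cell type in the levels of the 8 genes was not tested.

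**Figure D4:**
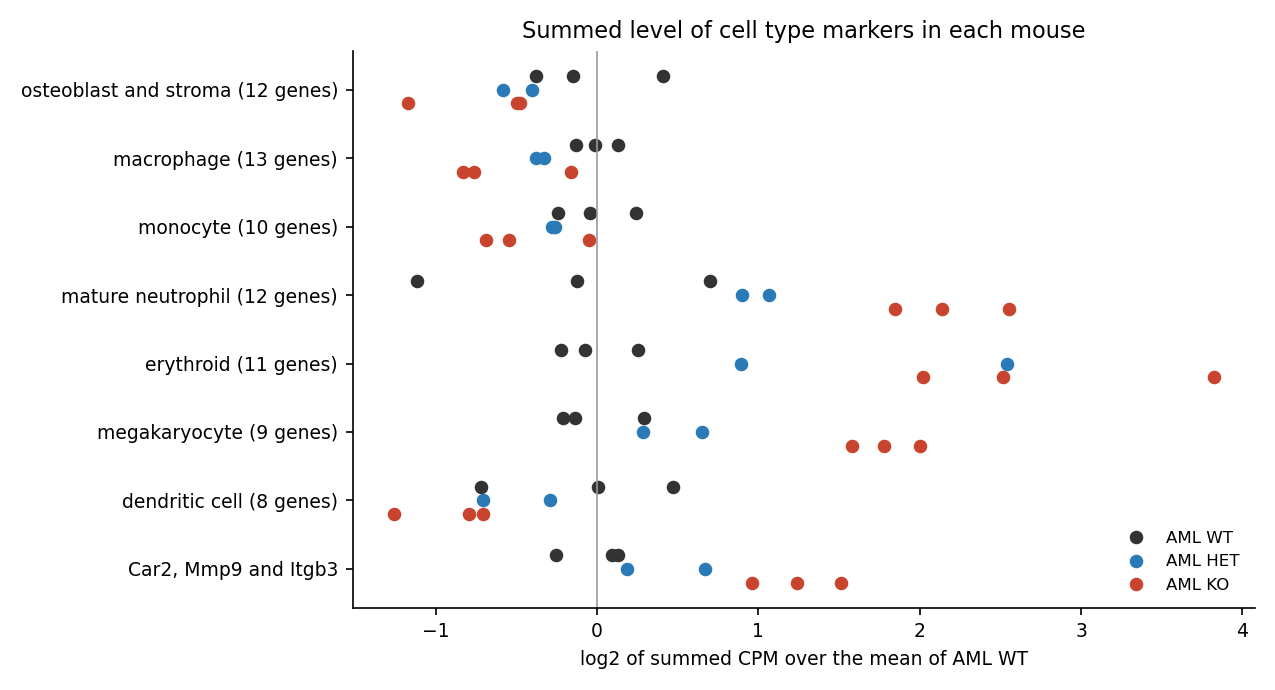
Summed CPM of cell type markers in each mouse, as log2 over the mean of the 3 AML WT mice (x axis, 0 is that mean), in AML WT (black), AML HET (blue) and AML KO (red). The osteoblast and stroma sum, mostly Col1a1 and Col1a2, goes from 733 to 1268 CPM in AML WT to 423 to 685 CPM in AML KO. The neutrophil, erythroid and megakaryocyte sums go the other way.

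Over the 8 mice, the mean z score of log2 CPM of the 8 genes served as their common profile. Ctsk (Pearson r = 0.99), Acp5 (0.98), Tnfrsf11a (0.91), Spp1 (0.91), Atp6v0d2 (0.89) and Ocstamp (0.84) followed the mean they are part of, Nfatc1 did so less (0.59), and Tcirg1 did not follow it (−0.26). These values describe 8 mice in 3 genotypes and carry no test. The 10 other genes closest to the profile were Gfra2 (0.98), Klrb1b (0.98), Ngfr (0.97), Postn (0.97), Ciita (0.97), Abca9 (0.97), Fgfr1 (0.97), 4833413G10Rik (0.97), Hspa5 (0.97) and Ust (0.97). Gfra2 is a co-receptor for ligands of the GDNF family, Ngfr and Fgfr1 are growth factor receptors, Postn is a matrix protein of bone and stroma, Ciita is the activator of MHC class II genes and Hspa5 is a chaperone of the endoplasmic reticulum.

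Levels of these genes showed the same order of groups, which follows from how they were picked and is no separate result. Fgfr1 went from 24.2 ± 1.82 CPM (SD, n = 3) with both alleles to 11.8 ± 2.49 (SD, n = 2) with 1 and 7.85 ± 1.57 (SD, n = 3) with none, and Ciita was at 60.1 ± 6.55, 38.7 ± 7.33 and 23.4 ± 8.89 CPM. Hspa5 went only from 808 ± 19.2 to 703 ± 28.1 and 645 ± 30.8 CPM, so a high r does not mean a large difference. Of the 10 genes, 4 to 7 were again among the closest 10 when 1 mouse was left out, and 9 when Tcirg1 and Nfatc1 were left out of the mean, which was tried after seeing the data.

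**Figure D5:**
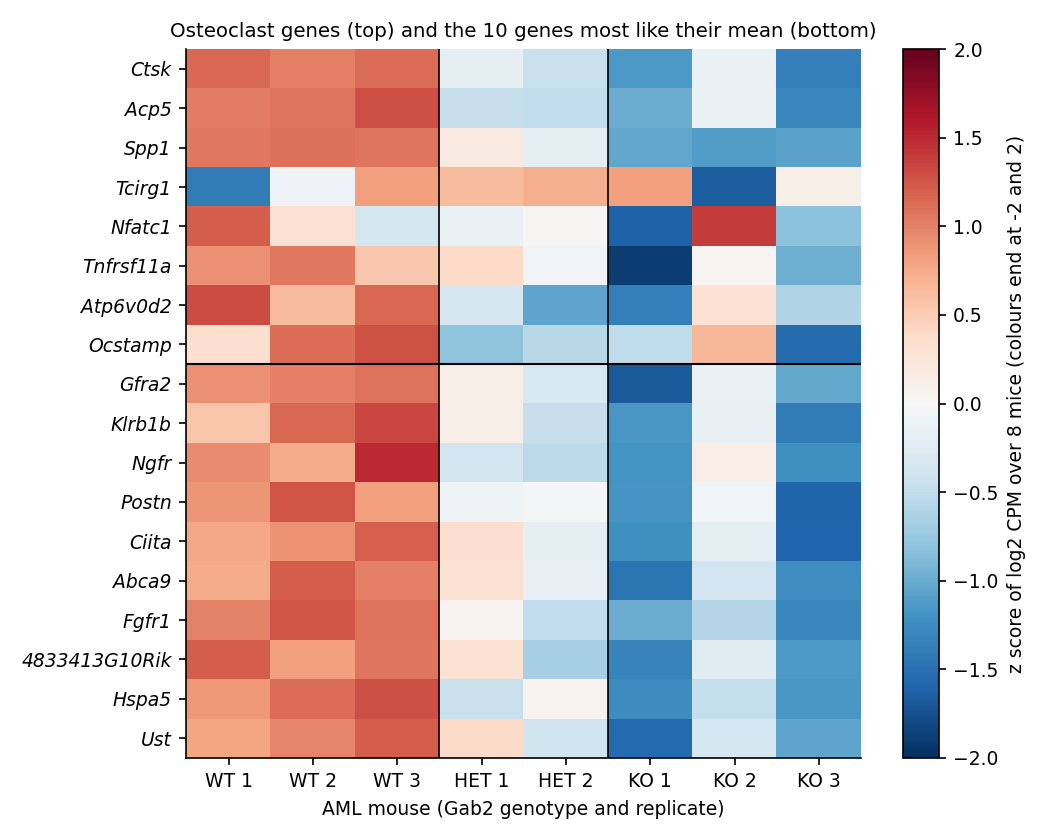
Heat map of z scores of log2 CPM over the 8 mice (colour, from −2 to 2) for the 8 osteoclast genes and, below the line, the 10 genes whose profile is closest to their mean, with mice in columns by Gab2 genotype and replicate. The AML WT columns are red for 6 of the 8 osteoclast genes, AML KO replicate 2 is paler than the other AML KO mice for Ctsk and Acp5, and Tcirg1 (r = −0.26) does not follow the rest.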

How the data were processed

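The authors sequenced whole BM RNA of 8 mice on an Illumina HiSeq4000 and deposited raw counts of reads per gene. The submitters' processing notes name Trimmomatic 0.36, STAR 2.5.2b and mm10. The counting tool, annotation and strand setting are not given in the sources used here. The table held 13305 genes with at least 106 counts over the 8 mice, so genes counted less have no row. Ensembl identifiers were matched to GENCODE M21 (13266 found, 39 not), and columns to mice by genotype and number.

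Differences were tested with edgeR 4.0.16 in R 4.3.3 (TMM, robust quasi-likelihood test, 1 fit of all 8 mice with genotype as the only term, Benjamini-Hochberg adjustment over all genes, threshold 0.05); filterByExpr removed 0 genes. The fit was tested on simulated data. P-values rest on a spread between mice that is estimated over all groups together, 2 or 3 mice each, and moderated over genes. Counting error adds to it and is larger for genes with few counts, such as Ocstamp. Standard errors come from the F statistic. TPM used GENCODE exon lengths. Motifs were searched in RefSeq windows with Python 3.11.15.

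The 8 genes, gene lists and marker lists were chosen with earlier results of these data known. Genes named were the 8 members, from each list the called genes (up to 4) or else the 2 with the smallest p, relatives of members and the 10 most alike. Itgb3, Csf1r and the marker genes named were chosen after their values were seen. Alternatives were DESeq2 1.42.0, limma-voom (limma 3.58.1), upper-quartile normalization, filters of 1 CPM in 3 mice or none, no 10 most abundant genes, the replicate number as a block, AML WT and AML KO mice alone, and each mouse left out.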

Additional observations from a re-analysis of the deposited data

How the results depend on the processing

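Between AML KO and AML WT, 278 genes were called, and DESeq2 gave 730 and fits without 1 mouse 40 to 370. Between AML HET and AML WT the 3 calls became 59 with DESeq2, 1 with limma-voom and 1 to 5 without 1 mouse. Between AML KO and AML HET the 0 calls became 77 with DESeq2 and 0 to 4 without 1 mouse. Against the midpoint 1 gene was called, 3 with DESeq2 and 0 to 3 without 1 mouse. With the replicate number as a block, these counts were 19, 0, 0 and 0. The sample titles give the numbers only as names of mice. Deviations from the group means correlated between −0.51 and −0.11 in same-numbered AML WT and AML KO mice. They correlated between −0.51 and 0.29 over all 7 same-numbered pairs, and between −0.36 and 0.46 over differently numbered ones. With so few mice these values cannot decide whether same-numbered mice share a batch. The block lost the calls of Anpep, Car2, Mmp9, Slc37a2 and Src (adjusted p = 0.122 to 0.187 in edgeR). Directions turned for values that had not passed the test. The distance of Spp1 from the midpoint was −0.002 with limma-voom and −0.12 to 0.12 without 1 mouse, and that of Tnfrsf11a −0.021 to 0.218. For Nfatc1, AML HET minus AML WT was −0.092 to 0.0 without 1 mouse, AML KO minus AML HET −0.156 to 0.055 and 0.007 with the block, and the distance from the midpoint −0.059 to 0.053. AML KO minus AML WT of Tcirg1 ran from −0.20 to 0.21 without 1 mouse. AML KO minus AML HET ran from −0.21 to 0.43 for Atp6v0d2 and from −0.30 to 0.79 for Ocstamp without 1 mouse. The cause was not tested. Ocstamp had only 7 to 43 counts per mouse. Ctsk, Acp5, Spp1, Tnfrsf11a, Atp6v0d2 and Ocstamp stayed lower in AML KO and AML HET than in AML WT under every alternative listed.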
